A study of Homo sapiens with 21 samples.

Results

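Caveolae and transverse (T-) tubules are membrane invaginations of striated muscle, and 8 genes that build them were followed through differentiation of human induced pluripotent stem cells (iPSCs) into cardiomyocytes (CMs). The genes were the caveolins CAV1, CAV2 and CAV3, the cavins CAVIN1, CAVIN2, CAVIN3 and CAVIN4, and BIN1, chosen by gene symbol with every transcript listed for them. Of the 8 genes, 7 had a listed transcript. They held 17 of the 21537 transcripts listed in any of the 6 deposited tables, and 33 of their 36579 entries.

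RNA-seq was made from 21 libraries of the PGP1 iPSC line, 3 in each of 7 groups. Wild-type cells were collected as iPSCs, mesoderm (M), cardiac mesoderm (CMes), cardiac progenitors (CP) and CMs. CMs were also collected from UBE2B-/-1 and UBE2B-/-2, independently edited iPSC lines that lack UBE2B, a ubiquitin-conjugating enzyme of the complex that adds ubiquitin to histone H2B. Per the study's methods, each replicate started differentiation at a different time, the UBE2B-/- lines were each grown from picked colonies of a different transfection, the mutant CMs were beating, and beating cultures were selected with lactate. Each of 4 tables compared neighbouring wild-type stages, and each of the other 2 compared a UBE2B-/- line with wild-type CMs. The tables hold transcripts that passed the authors' comparison at a q-value of up to 0.05, with a mean and a variance pooled over the libraries of both stages (6 libraries) or of all 3 CM groups (9 libraries). They give no value for a single library or a single stage and no sequencing depth, and the authors' fold changes and p-values are not used here. What follows therefore describes which transcripts were listed and at what pooled level. It gives no direction of change between stages or genotypes and no replicate error.

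Caveolae are small flask-shaped pits of the plasma membrane. Caveolins insert into the membrane as oligomers, and cavins form the coat on its cytoplasmic side. CAV1 and CAV2 are found in many cell types, CAV3 is the muscle caveolin and CAVIN4 is the muscle cavin. T-tubules carry the action potential into the myocyte interior. Caveolin 3 and BIN1, a BAR-domain protein also called amphiphysin 2, are known for shaping them, and T-tubules form late in heart muscle development.

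CAV1 is made as a long and a short form, which start at different ATG codons of the gene on chromosome 7 and end in the same last coding exon. The first 30 coding bases of each are given because the listed transcripts ENST00000341049.7 (GENCODE name CAV1-201) and ENST00000393467.1 (CAV1-202) differ there. Capitals mark the start codon, and both were read on the + strand of hg38, at chr7:116525063-116525092 for the long form and chr7:116526588-116526617 for the short form.
CAV1 long form: ATGtctgggggcaaatacgtagactcggag
CAV1 short form: ATGgcagacgagctgagcgagaagcaagtg
The start of the short form lay 93 coding bases, or 31 codons, into the long form.

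**Figure D1:**
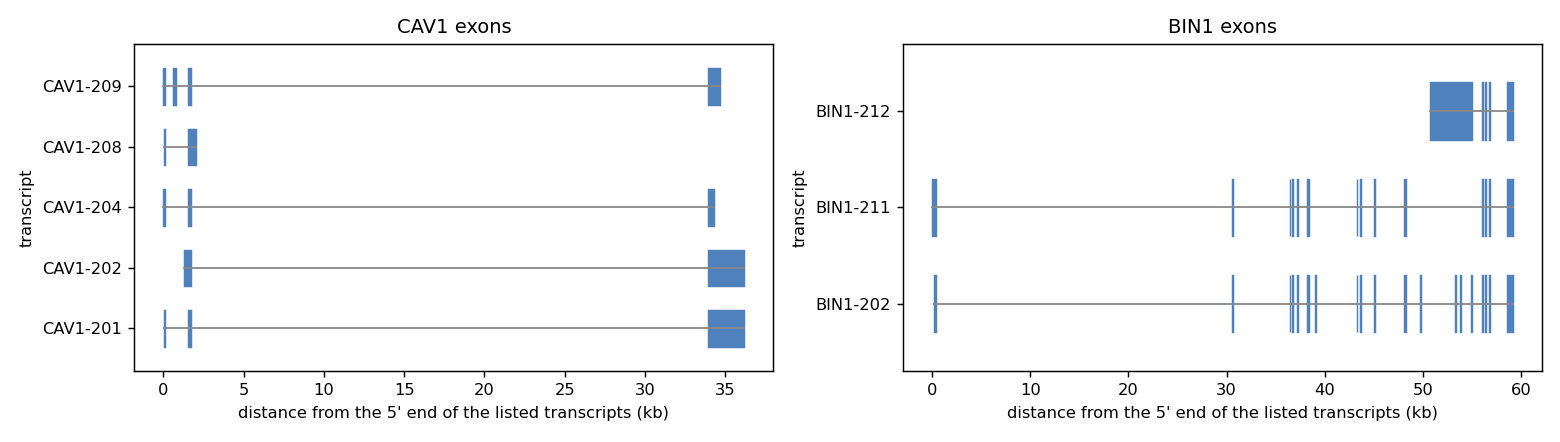
Exons (blocks) and introns (lines) of the listed CAV1 and BIN1 transcripts, by distance in kb from the 5′ end of the gene's listed transcripts. CAV1-202, the short form, starts downstream of CAV1-201, the long form, and BIN1-202 has 5 internal exons that BIN1-211 lacks.

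The number of caveolae and T-tubule transcripts listed was highest for the last transition. The iPSC and M table listed 4 of the 17 (23.5%), where it listed 15.4% of the 21537 transcripts. The M and CMes table listed 5 (29.4%), against 30.4% of all. The CMes and CP table listed 7 (41.2%), against 34.9% of all. All 17 were in the CP and CM table, which listed 60.3% of all transcripts. Because a transcript counts among the 17 only where some table lists it, these shares are a description and were not tested. The first 3 shares were near those of all transcripts.

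Neither UBE2B-/- table listed any of the 17 transcripts. The table for UBE2B-/-1 listed 14.3% and that for UBE2B-/-2 14.6% of the 21537 transcripts. Of the 20180 transcripts listed for a stage transition, 2873 (14.2%) were also listed for at least one UBE2B-/- line. An unlisted transcript may have missed the authors' limit or may have been too low to be tested. The absence of the 17 therefore does not show that their levels were alike in mutant and wild-type CMs. UBE2B itself was listed for UBE2B-/-1 with 1 transcript and for UBE2B-/-2 with none, and its level in each library, which would check the genotypes, cannot be read from pooled values.

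**Figure D2:**
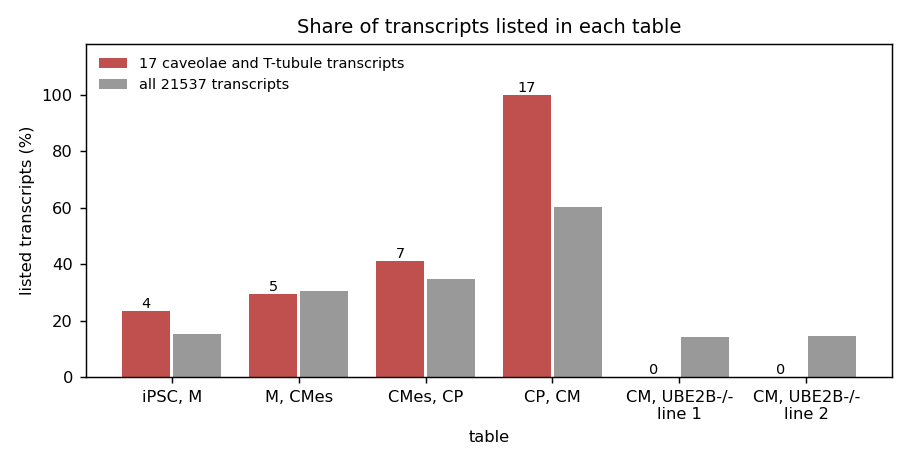
Percentage of the 17 caveolae and T-tubule transcripts (red, with their number above the bar) and of all 21537 transcripts (grey) listed in each of the 6 tables. All 17 were listed for CP and CM and 0 for either UBE2B-/- line.

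Levels are given as estimated counts, the geometric mean over the 6 libraries of a table, back-transformed from the authors' pooled natural-log mean. A technical SD, the part of the spread that the authors' tool assigned to measurement (the sampling of reads and their division among transcripts), stands beside them on the log2 scale. The total SD spans the libraries of both stages and so is not replicate error. In bulk RNA, fewer cells of a type and less RNA per cell cannot be told apart.

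CAVIN1, the cavin that caveolae need in order to form, was the most abundant member in each table that listed it. Its transcript ENST00000357037.6 (chr17:42402449-42423256, - strand, 2 exons) had a pooled level of 1252.7 estimated counts in iPSCs and M, 1764.9 in CMes and CP, and 6342.5 in CP and CM. It was not listed for M and CMes. In CP and CM it stood at the 98.6th percentile of all listed transcripts. The technical SD there was 0.02 log2 units, the smallest of the 17, against a total SD of 1.09, so technical variance made up 0.0345% of the total.

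CAVIN4, also known as MURC, encodes the cavin of heart and skeletal muscle and is linked to T-tubules. ENST00000307584.5 (2 exons on chromosome 9, + strand) had 276.6 estimated counts in M and CMes, 242.9 in CMes and CP, and 253.6 in CP and CM. The muscle cavin was thus already listed at the M and CMes transition, at a pooled level close to that in the later tables. Its total SD in CP and CM, 0.91 log2 units, was the smallest among the 17 and below the median of 1.06 for all transcripts listed there.

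CAVIN3, a cavin that binds protein kinase C delta, was the only member with a transcript in all 4 transition tables. ENST00000303927.4 (chr11:6318946-6320501, - strand) had 47.7 estimated counts in iPSCs and M, 50.7 in M and CMes, 58.4 in CMes and CP, and 70.8 in CP and CM. Its other listed transcripts, ENST00000524852.1 and ENST00000532354.1, are annotated as retained introns. They appeared for CP and CM alone, at 4.64 and 3.58 estimated counts.

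CAVIN2, a cavin that bends membranes and is prominent in endothelium, was listed for CP and CM alone. ENST00000304141.5 (chr2:191834310-191847088, - strand) had 11.3 estimated counts, at the 19.0th percentile of that table. The cavins thus ranged in CP and CM from 11.3 to 6342.5 estimated counts for their leading transcripts. Per kilobase of transcript, the scale on which genes can be compared, CAVIN1 had 1777 estimated counts, CAVIN4 81.9, CAVIN3 68.8 and CAVIN2 3.72.

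CAV1, the main structural caveolin outside muscle, was listed with 5 transcripts. The short form, ENST00000393467.1, had 210.5 estimated counts in iPSCs and M and 297.3 in CP and CM. The long form, ENST00000341049.7, had 4.44 in CMes and CP and 17.7 in CP and CM. The long form showed the widest spread of the 17 in CP and CM, with a total SD of 5.67 log2 units and a technical SD of 0.13.

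Because each level is a geometric mean over both stages, it is lowered by libraries in which a transcript is near 0, and the proportions of the long and short forms in CP or in CM alone cannot be read from it. The short form had a technical SD of 0.72 log2 units in CP and CM, and both forms share their last coding exon. The remaining transcripts, ENST00000393470.1, ENST00000489856.1 and ENST00000614113.4, were listed for CP and CM alone at 11.0, 2.91 and 20.8 estimated counts.

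CAV2, the caveolin that joins CAV1 in hetero-oligomers, lies beside CAV1 on chromosome 7. Its transcript ENST00000222693.5 (chr7:116499738-116508541, + strand, 3 exons) had 82.2 estimated counts in iPSCs and M, 126.8 in CMes and CP, and 401.3 in CP and CM. It was listed for the same 3 transitions as CAVIN1. A transcript with no annotated coding sequence, ENST00000495841.1, had 8.75 in CMes and CP and 98.8 in CP and CM. The short coding transcript ENST00000343213.2 had 4.42 in CP and CM.

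CAV3, the muscle caveolin, was listed in none of the 6 tables. No level of CAV3 can be read from them, and a missing entry does not say that it was not expressed.

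**Figure D3:**
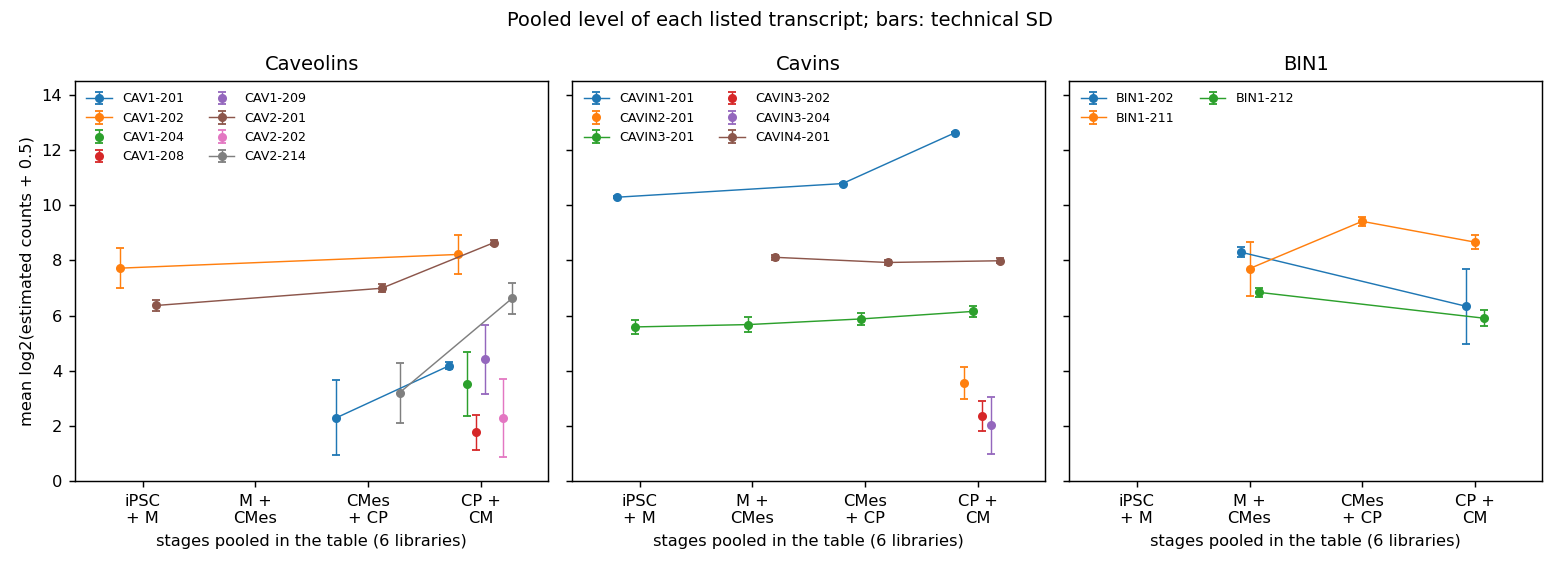
Pooled level of each listed transcript (mean log2 of estimated counts + 0.5) against the stages pooled in each table, for caveolins, cavins and BIN1, with bars for the technical SD and lines joining tables that list the same transcript. CAVIN1-201 lies above every other member, at 1252.7 to 6342.5 estimated counts, and CAV1-201 has 4.44 and 17.7.

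BIN1 was listed with 3 transcripts, 2 of them coding. ENST00000409400.1 (BIN1-211, chr2:127048038-127107278, - strand, 14 exons) had 208.1 estimated counts in M and CMes, 683.4 in CMes and CP, and 405.2 in CP and CM. ENST00000316724.10 (BIN1-202), the longest coding form listed, with 19 exons, had 315.4 in M and CMes and 80.6 in CP and CM. It differs from ENST00000409400.1 by 5 additional internal exons of 462 bases in all, and it is the form known from brain.

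The pooled level of the longest coding form was thus above that of ENST00000409400.1 in M and CMes and below it in CP and CM. Total SDs in CP and CM were 2.09 log2 units for the longest coding form and 1.15 for ENST00000409400.1, so the order need not hold in either stage alone. Technical SDs were wide for the lower value on each side, at 0.98 log2 units for ENST00000409400.1 in M and CMes and 1.36 for ENST00000316724.10 in CP and CM. Technical variance made up 49.0% and 42.5% of these totals. The third transcript, ENST00000462958.5, is annotated as a retained intron, with an exon of 4237 bases, and had 114.6 and 59.6 estimated counts in the same tables.

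The pooled levels were also set side by side between the CMes and CP table and the CP and CM table, which share the CP libraries and were normalized separately. Over the 3743 transcripts in both, the median difference was -0.22 on the log2 scale, with the 10th and 90th percentiles at -1.75 and 1.28. The 7 caveolae and T-tubule transcripts in both had a median of 1.66, with single values from -0.75 to 3.42. CAV2 entered this median with both of its shared transcripts, so it is not a median over genes. In these tables the differences were 1.88 for the CAV1 long form, 1.85 for CAVIN1, 1.66 for CAV2 ENST00000222693.5 and 3.42 for CAV2 ENST00000495841.1.

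These 4 lay above the 90th percentile of all transcripts. CAVIN3 at 0.27, CAVIN4 at 0.06 and BIN1 ENST00000409400.1 at -0.75 lay between the percentiles. The CAV1 long form, both CAV2 transcripts and CAVIN1 were at a higher pooled level in the later table, and the CAV1 short form, not listed for CMes and CP, could not be compared. Low pooled levels in CMes and CP make the CAV1 long form and ENST00000495841.1 the least certain of the 4, with technical SDs there of 1.35 and 1.09. In CP and CM their technical SDs were 0.13 and 0.57.

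**Figure D4:**
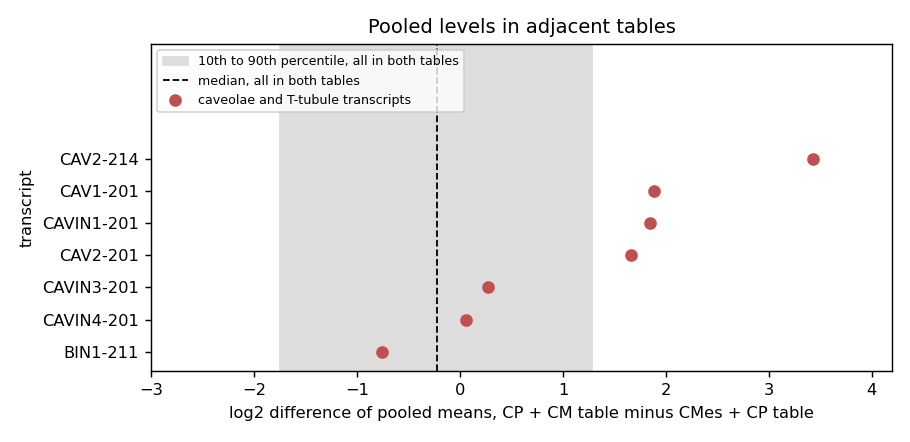
Log2 difference of pooled means between the CP + CM and the CMes + CP table for the 7 members in both (points), beside the median (dashed line, -0.22) and the 10th to 90th percentile range (grey) of all 3743 transcripts in both. CAV1, CAV2 and CAVIN1 transcripts lie to the right of the grey range, from 1.66 to 3.42.

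Between the M and CMes table and the CMes and CP table, which share the CMes libraries, the median difference over 2427 transcripts was 0.19. The 10th and 90th percentiles were -1.04 and 2.40. BIN1 ENST00000409400.1 differed by 1.71, CAVIN3 by 0.20 and CAVIN4 by -0.19, all between these percentiles. The BIN1 transcript had a technical SD of 0.98 log2 units in M and CMes. CAVIN3 was the only member in both the iPSC and M table and the M and CMes table, with a difference of 0.08, against a median of 0.08 over 1551 transcripts. Its pooled level thus moved as the median transcript did across these tables.

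Members had a lower median level than the transcripts listed with them, in estimated counts not divided by transcript length. In CP and CM their median level was 59.6 estimated counts, against 184.4 for all 12982 listed transcripts. The 17 include minor transcripts and retained introns, which lower this median. The leading transcripts of CAVIN1, BIN1, CAV2, CAV1 and CAVIN4 lay above 184.4, and those of CAVIN3 and CAVIN2 below it. Total SDs of these leading transcripts ran from 0.91 for CAVIN4 to 2.16 log2 units for CAV1. Over all 17, the median total SD was 2.09 log2 units, against 1.06, and the median technical SD was 0.57, against 0.23. The median share of technical in total variance was 6.10%, against 5.56%, and it was over 10% for 7 of the 17 (41.2%) and for 33.1% of all.

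**Figure D5:**
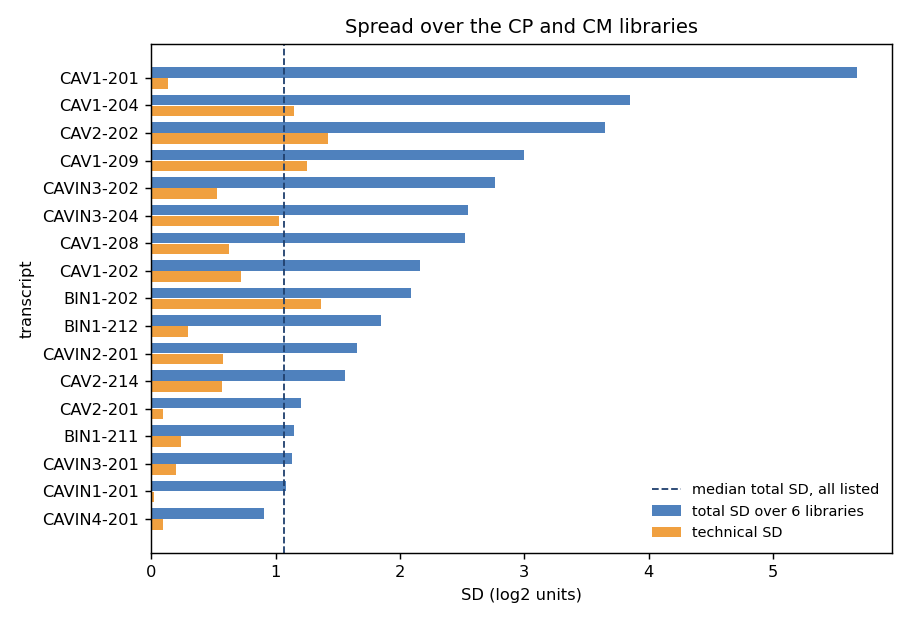
Total SD over the 6 CP and CM libraries (blue) and technical SD (orange), in log2 units, for the 17 transcripts, with the median total SD of all listed transcripts (dashed line, 1.06). The CAV1 long form, CAV1-201, has the largest total SD, 5.67, and CAVIN4-201 the smallest, 0.91.

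Other genes of the same structures were also listed. Of 17 genes that encode proteins of the caveolar neck, flotillins or T-tubule proteins, 15 were listed in some table, 14 of them for a transition and 5 for a UBE2B-/- line. Of the 11851 genes listed in any table, 96.3% were listed for a transition and 27.0% for a UBE2B-/- line. In CP and CM, 6 of 10 caveola-associated genes were listed, where the table held 66.5% of all listed genes. The 10 include PACSIN1, which was listed nowhere, whereas the 66.5% leaves such genes out. They included EHD2, an ATPase that holds the caveolar neck, at 640.5 estimated counts, and EHD4 at 1397. Of the 3 also listed for CMes and CP, EHD1 had the higher pooled level in CP and CM, with 1017 and 1507 estimated counts, whereas EHD2 had 732.5 and 640.5 and DNM2, a dynamin, had 1493 and 955.4. EHD2 was also listed for UBE2B-/-2, at 1715 estimated counts over the 9 CM libraries, whereas no caveolin, cavin or BIN1 transcript was.

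Of the 7 T-tubule genes, 0 were listed for iPSCs and M, where 22.0% of all listed genes were, and 4 for M and CMes, against 39.7% of all. In CMes and CP, 2 were listed, against 45.2% of all, and in CP and CM 4, against 66.5%. JPH2, the junctophilin that tethers T-tubules to the sarcoplasmic reticulum, had 43.5 estimated counts in M and CMes, 400.1 in CMes and CP, and 2094 in CP and CM. TCAP, a titin-binding protein linked to T-tubule stability, had 92.3 in CP and CM for its leading transcript. JPH2 was listed for both UBE2B-/- lines, at 4785 estimated counts over the 9 CM libraries. PACSIN1 and TRIM72 were listed in none of the tables. The 7 T-tubule genes include TRIM72, whereas the shares of all listed genes leave out genes listed nowhere.

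Markers of the cells in these cultures were listed beside the members. All 7 cardiomyocyte markers were listed for CP and CM, with 62746 estimated counts summed over their listed transcripts. The leading transcript of MYH6, a myosin heavy chain, had 20016, and the leading one of 20 listed for TNNT2, cardiac troponin T, had 2213. The 7 fibroblast and smooth muscle markers were all listed there too, with a summed level of 33937, led by COL3A1. In CMes and CP, 6 of these 7 had summed to 11298 estimated counts and the 7 cardiomyocyte markers to 3125. The leading transcript was the same in both tables for 6 cardiomyocyte markers, and all 6 had the higher pooled level in CP and CM, such as MYH6 with 372.2 and 20016 estimated counts and PLN with 20.5 and 3583. It was the same for 4 fibroblast and smooth muscle markers, of which 3 had the higher level in CP and CM: COL3A1 with 1237 and 12883 estimated counts, ACTA2 with 454.3 and 6424, and LUM with 434.4 and 1460. PDGFRB had the lower one, with 886.4 and 263.3. The leading transcripts of COL1A1 and THY1 in CMes and CP were not those that led in CP and CM, and TAGLN was listed for CP and CM but not for CMes and CP. The sums therefore rest on different transcripts. All 6 cardiomyocyte markers and 3 of the 4 fibroblast and smooth muscle markers thus lay on the same side as CAV1, CAV2 and CAVIN1. The pluripotency markers POU5F1 and SOX2 and the mesoderm marker EOMES lay on the other side. POU5F1 had 1931 and 17.8 estimated counts, SOX2 657.6 and 36.9, and EOMES 522.6 and 27.9. Caveolins and CAVIN1 are abundant in fibroblasts, smooth muscle and endothelium as well as in muscle. Beating cultures were selected with lactate, which per the study's methods works only on CMs. The study still reports TNNT2 in only a part of the cells of beating UBE2B-/- cultures. Pooled over wild-type and UBE2B-/- CMs, COL3A1 had 50516 estimated counts and COL1A1 46272.5, beside 22926 for PLN and 12092 for TNNT2. These values do not separate wild-type from mutant CMs, and the share of CMs in a culture was not tested. Of 4 endothelial markers KDR and TEK were listed for CP and CM, at a summed level of 2594, and PECAM1 and CDH5 were not. The part of fibroblasts, smooth muscle and endothelium in the levels of CAV1, CAV2, CAVIN1 and CAVIN2 was not tested.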

How the data were processed

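RNA was poly(A)-selected from 3 cultures per group. Per the study's methods, the authors trimmed reads, quantified transcripts with kallisto against hg38 and compared groups with sleuth. Each deposited table gives gene, transcript, the natural log mean of normalized estimated counts pooled over its libraries, and scores for total and technical variance. It also holds the authors' coefficients with errors, p-values and q-values, and fitted variances, which were not used. No group difference was tested, and depth per library is unknown.

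Levels were exp(mean) minus 0.5, the tool's default pseudocount. Variances were given as SDs on the log2 scale. Transcripts were matched to GENCODE 44 for position, length and sequence. All 17 identifiers matched, 2 of them (CAV1 ENST00000614113.4 and CAVIN4 ENST00000307584.5) with another version. Both UBE2B-/- tables came from a single fit, since 1992 shared transcripts had identical pooled means. All 8 members and the lists of other genes are named by rule, and were chosen with earlier results of these data known. Scripts used Python 3.11.15, numpy 2.4.6 and pandas 2.3.3, and were tested on simulated data. Alternatives were another scale, other centrings, a minimum of 10 estimated counts and 1 transcript a gene. A further sequence item is not reported here.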

Additional observations from a re-analysis of the deposited data

How the results depend on the processing

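No paired analysis was possible because the tables hold pooled values with no replicate of their own, and for the same reason no replicate could be left out. Dividing by transcript length lowered the median log2 level over the 33 entries from 6.36 to 5.62. Subtracting no pseudocount moved none of the 33 levels beyond their technical spread. The median difference between adjacent tables was 0.24, and 0.39 and 0.48 after centring on all shared transcripts or on those in all 4 tables. Centring moved 4 and 5 of 10 single differences, and CAVIN3 between the iPSC and M and the M and CMes tables changed sign, to -0.04. The median percentile of the 33 entries among all listed transcripts was 33.7. It was 26.5 with at least 10 estimated counts and 37.7 with 1 transcript a gene. Removing technical variance lowered the median total SD from 1.21 to 1.16 log2 units. Depth and replicate error cannot be read from pooled values, and no direction was tested.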
